A study of Mus musculus with 18 samples.

Results

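Integrins and laminins were described as 37 genes among the 55453 gene names counted in each library. The 26 integrin subunits (18 alpha and 8 beta) and the 11 laminin subunits (5 alpha, 3 beta and 3 gamma) were selected by their gene symbols. That rule used no measured value, but the subunits were chosen for description with earlier results of these data known. The filter on low counts was passed by 36 of the 37 subunits, and Itgad was the exception. RNA-Seq was performed on laser-microdissected (LMD) colonic epithelium from female Swiss Webster mice, an outbred stock, that had all received the carcinogen azoxymethane (AOM) at 7 weeks of age and, starting at 9 weeks, 4 cycles of dextran sulfate sodium (DSS), each made up of 7 days on 2% DSS and 14 days on plain water. All mice started on chow with 2 mg/kg folic acid (FA), were moved at 11 weeks to chow with 8 or 0 mg/kg FA for 16 weeks, and were killed at 27 weeks. Polypoid dysplasia formed the groups 8P (8 mg/kg FA, n = 5) and 0P (0 mg/kg FA, n = 4), and non-dysplastic epithelium formed 8ND (8 mg/kg FA, n = 5) and 0ND (0 mg/kg FA, n = 4). Every group had therefore been given carcinogen and colitis, and ND is not healthy colon. Lesions were cut by histology from fixed, embedded tissue. The labels do not say which libraries came from separate mice, so p-values measure the spread between these libraries, part of which may be technical.

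Laminins are trimers of an alpha, a beta and a gamma chain that form the sheet of the basement membrane under every epithelium. Integrins are pairs of an alpha and a beta subunit that span the cell membrane and tie the matrix outside to the cytoskeleton inside. In the gut, epithelial cells sit on laminins through integrins that contain Itga6, Itga3, Itgb4 and Itgb1, while smooth muscle, fibroblasts, endothelium and leukocytes in the wall carry subunits of their own.

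Library totals ranged from 3500947 to 17048524 counts on genes, with the lowest in 8ND 4. The 37 subunits took 0.245 to 0.297% of the counts in 8P and 0.271 to 0.311% in 0P, against 0.203 to 0.245% in 8ND and 0.179 to 0.214% in 0ND. On the first principal component, 8ND 1 and 8ND 2 (−13.9 and −14.2) came closest of the ND libraries to P. The 9 epithelial markers (Epcam, keratins, Vil1 and others) summed to 2648 to 3313 CPM in 8P, 2937 to 4151 CPM in 0P, 3043 to 4443 CPM in 8ND and 3487 to 4394 CPM in 0ND. Every one was detected in every library. In 8P vs. 8ND, 6 of the 9 were called lower and 1 higher, against 14.3% and 13.9% of all genes. In 0P vs. 0ND, 4 of the 9 were called lower and 1 higher, against 15.7% and 15.9% of all genes. The marker called higher was Krt18 on both diets. Markers of smooth muscle, fibroblasts and plasma cells were also detected in every group, so the cut tissue was not pure epithelium. In such bulk samples, fewer cells of a type and less RNA per cell cannot be told apart.

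Of the 11 subunits that changed in the same direction with dysplasia on both diets (values below), the RefSeq table (GRCm38.p6, which has the coordinates of mm10) held promoter windows for 5. The 250 bases before the start are shown for the 3 whose window touched no annotated exon, because these genes moved with dysplasia on both diets; the windows of Itgb8 and Itga8 overlapped exons and are not shown. Itgav (chr2:83724147-83724396, plus strand) and Lama5 (chr2:180225860-180226109, minus strand) were higher in P, and Lama2 (chr10:27616943-27617192, minus strand) was lower. Sequences run 5′ to 3′ on the strand of the gene. Capitals mark matches, on either strand, to the GC box GGGCGG, the TCF/LEF core CTTTGA or the AP-1 site TGANTCA.
Lama5: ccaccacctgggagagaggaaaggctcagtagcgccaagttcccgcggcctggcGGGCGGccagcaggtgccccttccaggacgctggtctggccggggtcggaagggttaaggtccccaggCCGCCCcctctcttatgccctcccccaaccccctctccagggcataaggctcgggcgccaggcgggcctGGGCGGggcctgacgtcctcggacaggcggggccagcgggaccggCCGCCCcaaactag
Itgav: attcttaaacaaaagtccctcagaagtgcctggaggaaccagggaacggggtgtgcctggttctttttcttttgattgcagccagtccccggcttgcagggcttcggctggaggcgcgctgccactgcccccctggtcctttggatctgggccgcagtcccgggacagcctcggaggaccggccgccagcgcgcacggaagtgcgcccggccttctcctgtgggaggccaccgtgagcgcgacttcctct
Lama2: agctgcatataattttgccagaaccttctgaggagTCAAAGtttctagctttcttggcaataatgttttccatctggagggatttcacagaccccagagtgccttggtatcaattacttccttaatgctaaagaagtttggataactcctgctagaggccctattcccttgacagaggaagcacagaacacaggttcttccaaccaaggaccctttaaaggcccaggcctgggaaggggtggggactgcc
The Lama5 window held 4 GC boxes and had a GC content of 72.4%, against a median of 52.4% over all 32851 windows of the same length. A GC box occurred in 32.7% of all windows, a TCF/LEF core in 13.8% and an AP-1 site in 6.75%. The Itgav window held none of these motifs, and that of Lama2 held 1 TCF/LEF core. The Lama2 window lies inside the longer gene model of GENCODE M21.

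Levels were compared between genes per exon length (RPKM). Itgb1, the beta subunit that pairs with most alpha subunits, was the most abundant in every group, at 81.9 ± 7.33 RPKM in 8P, 95.9 ± 17.4 RPKM in 0P, 69.9 ± 8.62 RPKM in 8ND and 61.2 ± 4.91 RPKM in 0ND (SD). Itga6 was next and Itgb4 came after it in all 4 groups. These form the integrin of hemidesmosomes, the rivets that hold epithelium to laminin. Itga6 averaged 41.1 ± 8.94 RPKM in 8P, 41.9 ± 1.96 RPKM in 0P, 29.7 ± 4.05 RPKM in 8ND and 29.3 ± 4.68 RPKM in 0ND. Lama5 ranked 6th among the 37 in 8P and 0P, against 19th in 8ND and 24th in 0ND. Lama1 ranked 15th in 8P and 19th in 0P, against 27th in 8ND and 33rd in 0ND. At the low end, Itgad, Lamc3, Itga10 and Itga2b each averaged at most 0.508 RPKM in every group. Most neighbors in this order were not separated, since the libraries of 33, 32, 33 and 33 of the 36 neighboring pairs overlapped in 8P, 0P, 8ND and 0ND.

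The comparisons of P with ND on each diet address what distinguishes polypoid dysplasia from non-dysplastic epithelium, as the tissue was cut. In 0P vs. 0ND, 19 of 36 subunits (52.8%) passed the edgeR test (adjusted p of at most 0.05 over all 20787 genes tested, termed called), against 31.6% of all genes. Of these, 15 were higher (41.7%, against 15.9% of all genes) and 4 were lower (11.1%, against 15.7%). In 8P vs. 8ND, 13 of 36 were called (36.1%, against 28.2% of all genes), with 7 higher (19.4%, against 13.9%) and 6 lower (16.7%, against 14.3%). A change of 2-fold or more was also reached by 9 called subunits in 0P vs. 0ND (25.0%, against 15.9% of all genes) and by 8 in 8P vs. 8ND (22.2%, against 12.4%). Groups did not overlap for 19 of 36 subunits in 0P vs. 0ND (52.8%, against 32.3% of all genes) and for 7 of 36 in 8P vs. 8ND (19.4%, against 17.2%). The median log2 fold change of the subunits was 0.46 in 0P vs. 0ND, against −0.034 over all genes, and 0.055 in 8P vs. 8ND, against 0.002. Laminins gave 8 calls of 11 in 0P vs. 0ND and 5 of 11 in 8P vs. 8ND, and integrins gave 11 of 25 and 8 of 25. Without the leukocyte subunits the calls were 17 of 31 and 12 of 31, and without 8ND 1 and 8ND 2 the calls in 8P vs. 8ND were 12 of 36. In 8P vs. 8ND the shares of subunits called and of subunits without overlap thus lay near those of all genes.

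Of the 36 subunits, 11 were called in the same direction on both diets, which share no libraries. They were 57.9% of those called in 0P vs. 0ND and 84.6% of those called in 8P vs. 8ND. Over all genes, the same shares were 62.9% and 70.3%, and 19.9% of all genes tested were called in both. Among the 11 subunits, Lama1, Lama5, Itgb8, Itgav, Itga6 and Itgae were higher in P, while Itga8, Itga7, Lama2 and Lamc3 were lower.

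**Figure D1:**
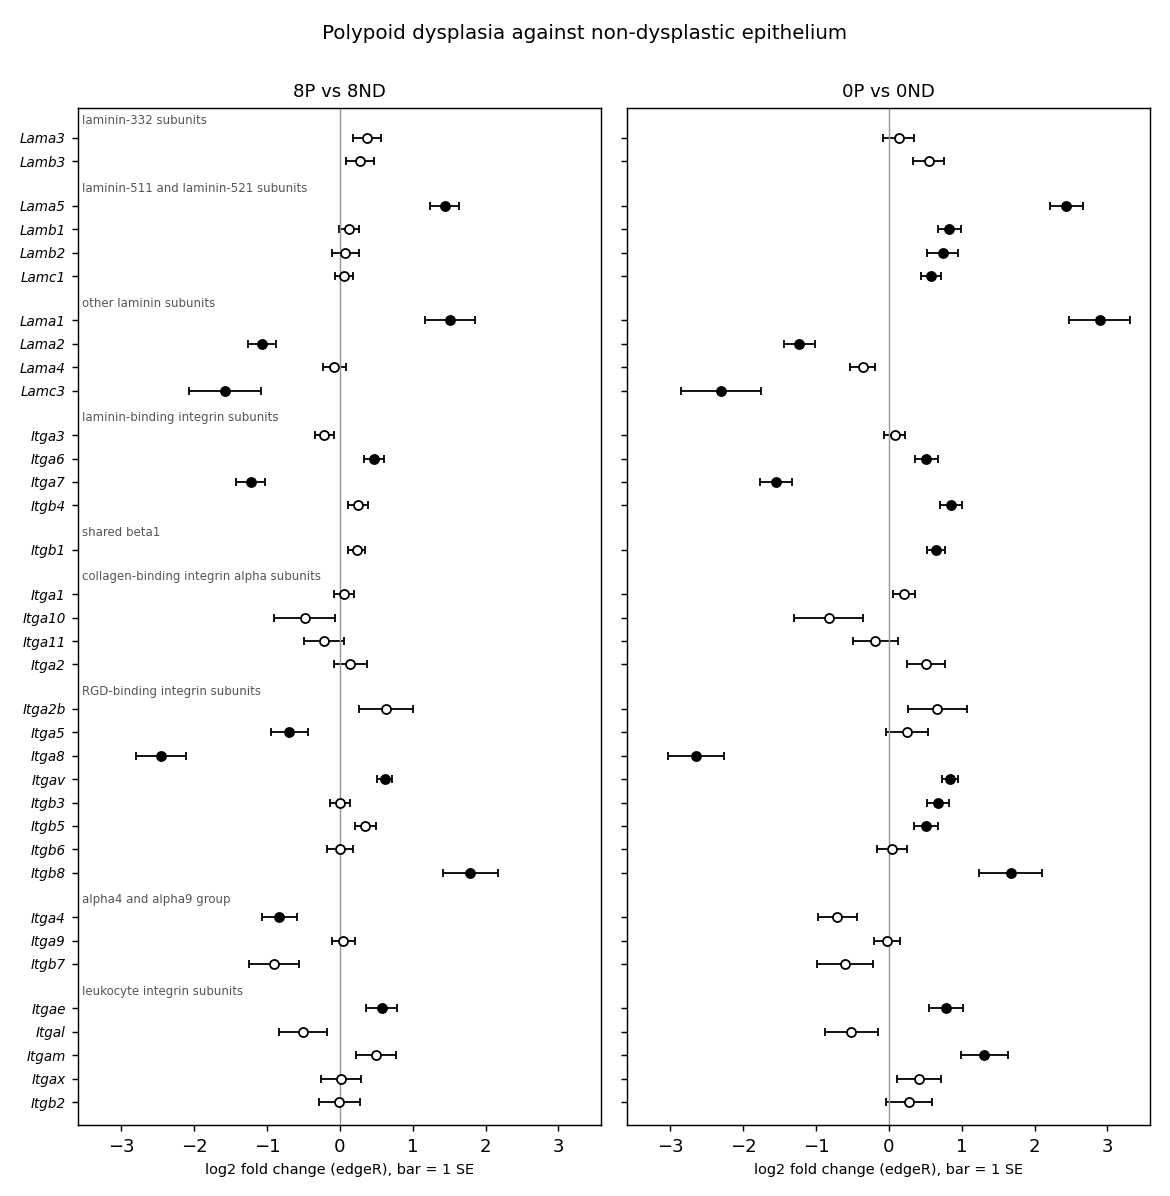
Log2 fold changes of tested subunits (x axis; bars, 1 SE) in 8P vs. 8ND (left) and 0P vs. 0ND (right), grouped by role along the y axis; filled points were called by edgeR and open points were not. Lama1, Lama5 and Itgb8 lie farthest to the right among the called subunits drawn on both diets, and Itga8 lies farthest to the left.

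Among the laminins of the adult epithelial basement membrane, Lama5 was higher in P lesions on both diets and its chain partners were called higher in 0P vs. 0ND. Lama5 encodes the alpha chain of laminin-511 and laminin-521, the broadly used epithelial laminins, and lies on chromosome 2 (180176373 to 180225859, mm10). It measured 176, 222, 96.5, 171 and 135 CPM in 8P libraries 1 to 5, against 66.3, 79.1, 47.0, 51.9 and 49.4 CPM in 8ND. On the diet without FA it measured 164, 237, 229 and 165 CPM in 0P, against 38.0, 44.3, 32.3 and 32.4 CPM in 0ND. Every P library lay above every ND library. The fitted log2 difference was 1.44 ± 0.20 SE in 8P vs. 8ND (2.72-fold, adjusted p = 4.1e-05) and 2.44 ± 0.23 in 0P vs. 0ND (5.41-fold, adjusted p = 1.1e-06). Its chain partners Lamb1, Lamb2 and Lamc1 were each called higher in 0P vs. 0ND, by 0.83 ± 0.16 (adjusted p = 0.00050), 0.74 ± 0.21 (adjusted p = 0.011) and 0.58 ± 0.14 (adjusted p = 0.0028). All 4 genes of this group thus rose on the diet without FA, with a median of 0.78 against −0.034 over all genes. In 8P vs. 8ND only Lama5 of the 4 was called, and Lamb1 (0.13 ± 0.14), Lamb2 (0.08 ± 0.19) and Lamc1 (0.05 ± 0.12) were not.

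Lama3 and Lamb3, the alpha and beta chains of laminin-332, the laminin under hemidesmosomes, were called in neither comparison. Lama3 averaged 132 ± 16.8 CPM in 8P and 102 ± 35.0 CPM in 8ND (0.37 ± 0.19, adjusted p = 0.16), and 141 ± 12.3 CPM in 0P and 128 ± 31.0 CPM in 0ND (0.14 ± 0.21, adjusted p = 0.68). Lamb3 gave 0.28 ± 0.19 in 8P vs. 8ND (adjusted p = 0.29) and 0.54 ± 0.21 in 0P vs. 0ND (adjusted p = 0.055). Lamb3 shares its locus with the annotated genes G0s2 and Hsd11b1, whose reads may not have been separable.

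Lama1 encodes the alpha chain of laminin-111, the main laminin of the early embryo, and lies on chromosome 17 (67697259 to 67822647). It measured 48.6, 98.7, 43.0, 51.1 and 106 CPM in 8P, against 30.3, 32.6, 16.1, 14.9 and 26.5 CPM in 8ND. It measured 63.1, 48.5, 65.7 and 64.8 CPM in 0P, against 8.26, 5.80, 15.2 and 3.13 CPM in 0ND. P and ND libraries did not overlap on either diet, and the ND libraries of the FA diet lay mostly above those of the diet without FA. In edgeR the log2 fold change was 1.51 ± 0.35 in 8P vs. 8ND (2.85-fold, adjusted p = 0.0036) and 2.89 ± 0.42 in 0P vs. 0ND (7.42-fold, adjusted p = 6.6e-05), the highest among the subunits on the diet without FA.

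**Figure D2:**
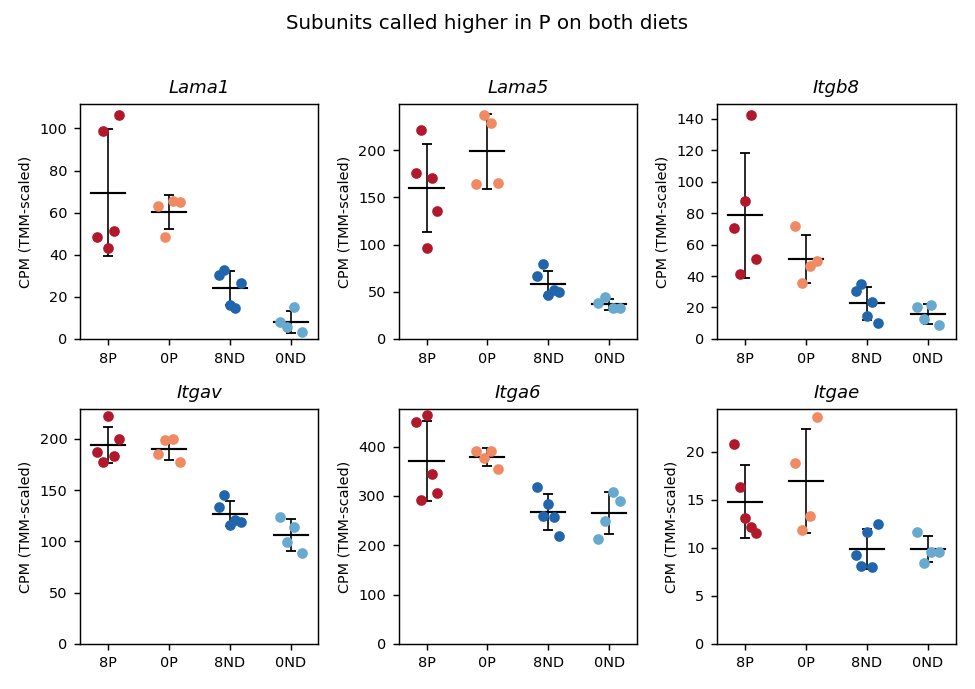
TMM-scaled CPM (y axis) of 6 subunits called higher in P on both diets, per library (points) in 8P, 0P, 8ND and 0ND, with the mean and SD (lines). For Lama1, Lama5, Itgb8 and Itgav every P library lies above every ND library of the same diet.

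The makeup of the laminin chains was read as shares of RPKM within a chain class, which scaling between libraries leaves unchanged. Lama5 took 34.9 ± 7.18% of the alpha chains in 8P and 40.7 ± 6.16% in 0P, against 20.5 ± 4.25% in 8ND and 12.9 ± 2.71% in 0ND, with no overlap between P and ND libraries. The share of Lama2 ran the other way, at 3.91 ± 1.27% in 8P and 3.98 ± 0.959% in 0P, against 13.3 ± 3.01% in 8ND and 15.7 ± 1.67% in 0ND. Lama3 took 31.7 ± 8.43% in 8P and 30.7 ± 2.72% in 0P, against 36.4 ± 6.85% in 8ND and 46.7 ± 6.40% in 0ND. Its share was lower in 0P than in 0ND with no overlap, while 8P and 8ND overlapped. The beta chains kept similar shares, with Lamb1 at 39.0 ± 3.56% in 8P, 40.9 ± 6.43% in 0P, 40.4 ± 4.06% in 8ND and 37.8 ± 3.61% in 0ND. These shares are a description and were not tested. The summed laminin level was 91.5 ± 14.7 RPKM in 8P and 111 ± 8.00 RPKM in 0P, against 67.1 ± 10.1 RPKM in 8ND and 63.8 ± 5.82 RPKM in 0ND.

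**Figure D3:**
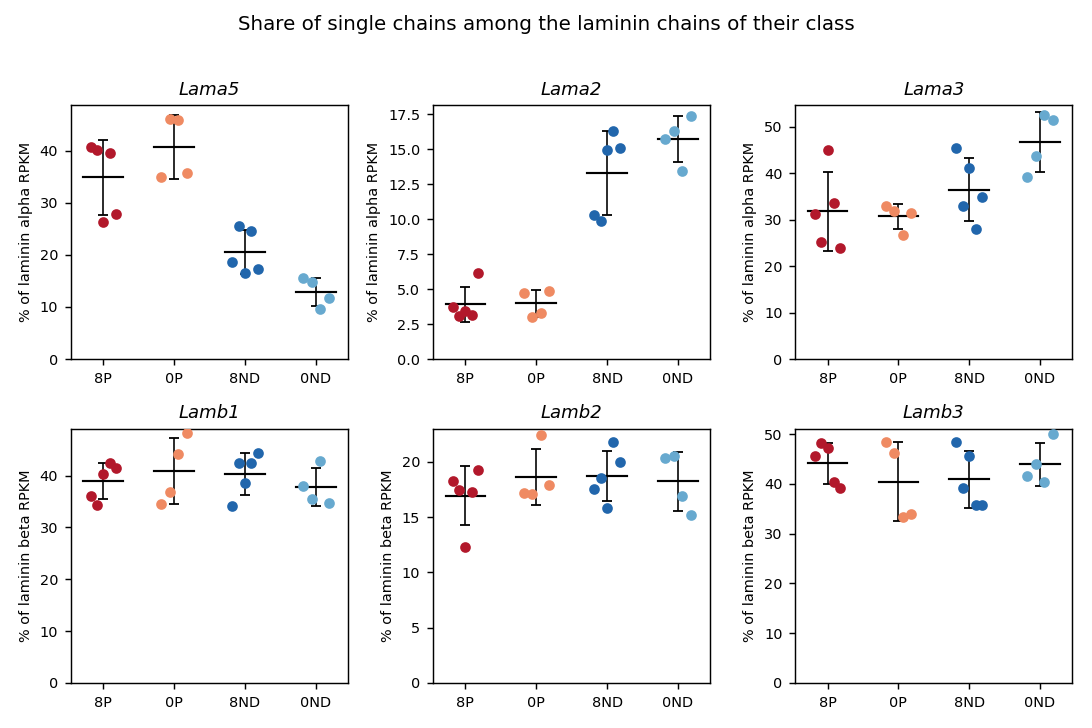
Share of single laminin chains in the summed RPKM of their class (y axis, % of alpha or beta chains) per library (points) in 8P, 0P, 8ND and 0ND, with the mean and SD (lines). Lama5 has higher shares in P, and Lama2 has lower shares in P. Lama3 has lower shares in 0P than in 0ND and overlaps between 8P and 8ND. Lamb1, Lamb2 and Lamb3 overlap across all groups.

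The receptors on the cell side of the laminin contact were measured as well. Itga6 pairs with Itgb4 in hemidesmosomes and with Itgb1 elsewhere. It measured 451, 292, 463, 344 and 306 CPM in 8P, against 319, 259, 283, 257 and 219.6 CPM in 8ND. It measured 391, 377, 392 and 354 CPM in 0P, against 214, 248, 308 and 289.8 CPM in 0ND. The 0P and 0ND libraries did not overlap, while 8ND 1 lay above 8P 2 and 8P 5. The gene was called on both diets, with 0.47 ± 0.14 in 8P vs. 8ND (adjusted p = 0.014) and 0.52 ± 0.15 in 0P vs. 0ND (adjusted p = 0.014), although without 0ND 1 the second value was 0.43 (adjusted p = 0.057; 0.0057 to 0.057 over the alternatives). Itgb4, on chromosome 11 (115974709 to 116008412), measured 166, 195, 136, 220.3 and 152 CPM in 8P, against 182, 143, 139, 124 and 141 CPM in 8ND. It measured 210.3, 216, 239.5 and 235 CPM in 0P, against 99.3, 146, 113 and 141 CPM in 0ND. Only the groups without FA were separate, and the gene was called there (0.85 ± 0.15, adjusted p = 0.00029) and not in 8P vs. 8ND (0.25 ± 0.14, adjusted p = 0.18). Itgb1 was likewise called in 0P vs. 0ND (0.65 ± 0.13, adjusted p = 0.00059) and not in 8P vs. 8ND (0.23 ± 0.11, adjusted p = 0.14). Itga3, the alpha subunit of a second epithelial laminin receptor, averaged 67.3 ± 11.8 CPM in 8P, 77.4 ± 9.41 CPM in 0P, 77.7 ± 8.46 CPM in 8ND and 73.5 ± 13.5 CPM in 0ND and was not called.

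Hemidesmosome partners of these integrins were measured for 4 genes. In 8P vs. 8ND, 3 of the 4 were called (1 higher and 2 lower, or 75.0% against 28.2% of all genes). In 0P vs. 0ND, 3 were called as well (2 higher and 1 lower, or 75.0% against 31.6%). Col17a1, the transmembrane collagen of hemidesmosomes, was higher in P by 2.68 ± 0.44 in 8P vs. 8ND (adjusted p = 0.00019) and by 2.88 ± 0.49 in 0P vs. 0ND (adjusted p = 0.00021). Dst, which links hemidesmosomes to intermediate filaments and also has isoforms in muscle and nerve, was lower by −0.72 ± 0.14 (adjusted p = 0.00081) and −0.99 ± 0.16 (adjusted p = 9.6e-05). Plec, a linker of the same plaque, was called lower only in 8P vs. 8ND (−0.67 ± 0.14, adjusted p = 0.0015; 0P vs. 0ND −0.34 ± 0.16, adjusted p = 0.11), and Cd151, a tetraspanin that binds laminin receptors, was called higher only in 0P vs. 0ND (0.63 ± 0.17, adjusted p = 0.0085; 8P vs. 8ND 0.01 ± 0.15, adjusted p = 0.96).

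Other partners in the basement membrane moved in both directions. Of 16 tested (nidogens, perlecan, agrin, type IV collagens and cell surface receptors for laminin), 8 were called in 8P vs. 8ND (5 higher and 3 lower; 50%, against 28.2% of all genes) and 12 in 0P vs. 0ND (9 higher and 3 lower; 75.0%, against 31.6%). Npnt, the nephronectin ligand of Itga8, was higher by 1.84 ± 0.30 in 8P vs. 8ND (adjusted p = 0.00019) and by 2.46 ± 0.34 in 0P vs. 0ND (adjusted p = 3.0e-05). Sdc1, a heparan sulfate proteoglycan of epithelia and plasma cells, was higher by 0.91 ± 0.16 (adjusted p = 0.00026) and 1.28 ± 0.18 (adjusted p = 2.3e-05). Agrn, a laminin-binding proteoglycan, was higher by 0.56 ± 0.13 (adjusted p = 0.0026) and 1.01 ± 0.14 (adjusted p = 3.2e-05). Col4a6, a type IV collagen chain of smooth muscle basement membranes among others, was lower by −1.998 ± 0.35 (adjusted p = 0.00030) and −2.74 ± 0.37 (adjusted p = 2.0e-05). Dag1, the laminin receptor dystroglycan, was called lower in 8P vs. 8ND only (−0.61 ± 0.11, adjusted p = 0.00041; 0P vs. 0ND −0.19 ± 0.12, adjusted p = 0.27).

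Among the integrins that bind the RGD tripeptide of fibronectin, vitronectin and latent TGF-beta, the transcripts of Itgav and Itgb8 were each higher in P. The pair that their proteins form binds latent TGF-beta and takes part in its activation. The pair itself was not measured. Itgb8, on chromosome 12 (119158022 to 119238802), measured 70.8, 41.5, 87.5, 143 and 50.7 CPM in 8P, against 30.2, 35.2, 14.7, 23.4 and 10.2 CPM in 8ND. It measured 72.1, 35.5, 46.4 and 49.3 CPM in 0P, against 20.3, 12.7, 21.7 and 8.75 CPM in 0ND. P libraries lay above ND libraries on both diets, with 8P 4 the highest of all. The fitted log2 difference was 1.79 ± 0.38 in 8P vs. 8ND (3.46-fold, adjusted p = 0.0022) and 1.67 ± 0.43 in 0P vs. 0ND (3.18-fold, adjusted p = 0.0066). Itgb8 took 20.5 ± 9.12% of the summed RPKM of Itgb3, Itgb5, Itgb6 and Itgb8 in 8P and 14.1 ± 3.26% in 0P, against 7.84 ± 3.26% in 8ND and 6.39 ± 2.31% in 0ND. The abundant Itgb1 was left out of this sum. The shares overlapped between 8P (lowest 10.8%) and 8ND (highest 11.1%) and did not overlap between 0P and 0ND.

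Itgav, on chromosome 2 (83724397 to 83806916), measured 188, 178, 222, 184 and 200.2 CPM in 8P, against 133, 145, 116, 121 and 119 CPM in 8ND. It measured 185, 199, 200 and 178 CPM in 0P, against 124, 99.4, 114 and 88.3 CPM in 0ND. The spread within groups was small, and no P library reached down to an ND library. On the log2 scale the difference was 0.61 ± 0.10 in 8P vs. 8ND (1.53-fold, adjusted p = 0.00017) and 0.84 ± 0.11 in 0P vs. 0ND (1.79-fold, adjusted p = 1.8e-05). Its other beta partners gave a mixed picture. Itgb3 was called in 0P vs. 0ND (0.68 ± 0.15, adjusted p = 0.0023) and not in 8P vs. 8ND (0.01 ± 0.14, adjusted p = 0.98). Itgb3 also forms the platelet receptor with Itga2b, and the 5 platelet markers summed to 1.29 to 3.72 CPM in 8P, 2.42 to 6.16 CPM in 0P, 2.501 to 5.14 CPM in 8ND and 1.90 to 4.92 CPM in 0ND, with Ppbp, Gp9 and Gp1bb at 0 in some libraries. The part of platelets in the level of Itgb3 was not tested. Itgb5, a vitronectin receptor subunit, was called in 0P vs. 0ND (0.51 ± 0.16, adjusted p = 0.019) but not without 0ND 3 (0.45, adjusted p = 0.062), 0P 1 (0.44, adjusted p = 0.056) or 0P 4 (0.41, adjusted p = 0.079; 0.0044 to 0.079 over the alternatives). In 8P vs. 8ND it gave 0.35 ± 0.14 (adjusted p = 0.072). Itgb6, the epithelial partner of Itgav, showed 0.00 ± 0.18 in 8P vs. 8ND and 0.04 ± 0.20 in 0P vs. 0ND and was called in neither.

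Itga5, the fibronectin receptor alpha subunit, measured 17.6, 23.3, 9.56, 8.42 and 18.4 CPM in 8P, against 23.03, 22.7, 27.5, 23.7 and 27.6 CPM in 8ND. It measured 16.3, 26.4, 30.5 and 17.7 CPM in 0P, against 15.1, 28.1, 15.5 and 18.3 CPM in 0ND. Both pairs of groups overlapped, with 8P 3 and 8P 4 the lowest libraries. The gene was lower in 8P vs. 8ND at the edge of the threshold (−0.69 ± 0.26, adjusted p = 0.049) and was not called in 0P vs. 0ND (0.25 ± 0.28, adjusted p = 0.55). The call was lost in 8 of the 10 fits that left out 1 library (without 8ND 1, 8ND 2, 8ND 3, 8ND 4, 8ND 5, 8P 1, 8P 3 or 8P 4), where the log2 fold change lay between −0.75 and −0.54 and the adjusted p reached 0.12 (0.013 to 0.12 over all alternatives).

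Itga8, Itga7, Lama2 and Lamc3 were lower in P on both diets. Itga8, a nephronectin receptor of smooth muscle and other contractile cells, measured 3.63, 3.37, 2.19, 2.32 and 4.26 CPM in 8P, against 13.9, 12.9, 13.1, 27.7 and 19.97 CPM in 8ND. It measured 7.64, 2.99, 1.37 and 2.54 CPM in 0P, against 23.3, 29.5, 21.8 and 18.3 CPM in 0ND. The P libraries all lay below the ND libraries. In edgeR the log2 fold change was −2.46 ± 0.34 in 8P vs. 8ND (adjusted p = 4.9e-05) and −2.65 ± 0.38 in 0P vs. 0ND (adjusted p = 4.0e-05). An antisense gene overlaps Itga8. The strand setting of the counting was not given, so reads from the overlap may not have been separable.

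Itga7, the laminin receptor of muscle, measured 4.33, 4.45, 4.78, 3.65 and 6.94 CPM in 8P, against 11.0, 11.7, 7.49, 12.2 and 13.9 CPM in 8ND. It measured 5.62, 3.91, 4.65 and 4.78 CPM in 0P, against 13.5, 17.9, 12.04 and 12.3 CPM in 0ND. No libraries overlapped on either diet, with 8P 5 (6.94 CPM) and 8ND 3 (7.49 CPM) closest. The fitted log2 difference was −1.22 ± 0.20 in 8P vs. 8ND (adjusted p = 0.00017) and −1.55 ± 0.22 in 0P vs. 0ND (adjusted p = 3.7e-05). Lama2, the alpha chain of muscle and nerve laminins, measured 23.2, 24.5, 18.1, 19.6 and 42.8 CPM in 8P, against 52.7, 43.6, 60.8, 49.5 and 62.1 CPM in 8ND. It measured 31.7, 22.3, 23.5 and 32.5 CPM in 0P, against 55.5, 70.0, 64.5 and 68.8 CPM in 0ND. Only 8P 5 came near the ND libraries. On the log2 scale the difference was −1.07 ± 0.19 in 8P vs. 8ND (adjusted p = 0.00039) and −1.23 ± 0.21 in 0P vs. 0ND (adjusted p = 0.00023). Lamc3, a rare gamma chain, averaged 0.587 ± 0.309 CPM in 8P and 1.67 ± 0.832 CPM in 8ND (−1.57 ± 0.49, adjusted p = 0.021), and 0.557 ± 0.309 CPM in 0P and 2.79 ± 1.10 CPM in 0ND (−2.30 ± 0.55, adjusted p = 0.0030). Its call in 8P vs. 8ND was lost without 8ND 5 (−1.27, adjusted p = 0.081) and without 8ND 1 and 8ND 2 together (−1.58, adjusted p = 0.059; 0.0093 to 0.081 over the alternatives).

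The smooth muscle markers fell with these subunits. All 7 (Myh11, Acta2, Des, Cnn1, Actg2, Tagln and Synpo2) were called lower in both comparisons. Of all genes, 14.3% were called lower in 8P vs. 8ND and 15.7% in 0P vs. 0ND. The median of the 7 was −1.57 in 8P vs. 8ND and −1.54 in 0P vs. 0ND, against 0.002 and −0.034 over all genes. The 7 markers summed to 287 to 650.1 CPM in 8P and 406 to 749 CPM in 0P. The sum was 1077 to 1845 CPM in 8ND and 1068 to 2739 CPM in 0ND. No marker of the 7 was at 0 in any library. The part of the smooth muscle content in the lower Itga8, Itga7, Lama2 and Lamc3 was not tested.

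**Figure D4:**
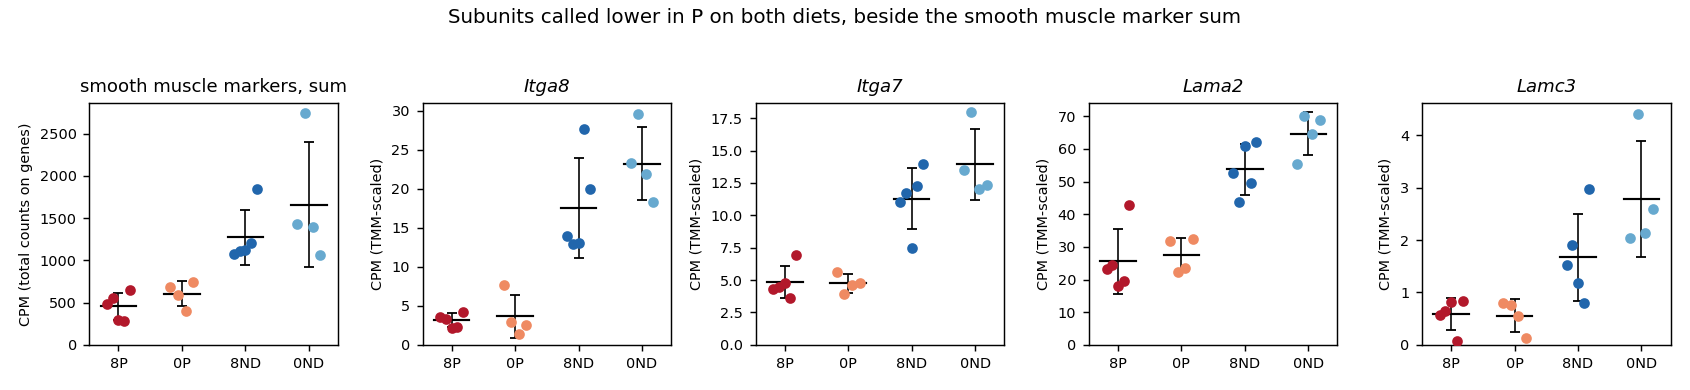
Summed CPM of 7 smooth muscle markers (left; CPM on total gene counts) and TMM-scaled CPM of Itga8, Itga7, Lama2 and Lamc3 (y axes) per library (points) in 8P, 0P, 8ND and 0ND, with the mean and SD (lines). The marker sum and Itga8, Itga7 and Lama2 have every P library below every ND library of the same diet.

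Integrins of leukocytes were measured too, since the microdissected tissue held immune cells. Itgam, the alpha subunit of complement receptor 3 on neutrophils and macrophages, measured 11.6, 19.9, 7.53, 11.4 and 16.2 CPM in 8P, against 10.2, 8.22, 7.60, 10.1 and 11.1 CPM in 8ND. It measured 7.90, 15.4, 11.8 and 22.3 CPM in 0P, against 5.15, 3.34, 8.03 and 6.48 CPM in 0ND. Libraries overlapped on both diets, narrowly so without FA. The gene was called in 0P vs. 0ND (1.31 ± 0.32, 2.48-fold, adjusted p = 0.0037) and not in 8P vs. 8ND (0.50 ± 0.28, adjusted p = 0.20). Beside it, the 7 neutrophil markers summed to 18.6 to 84.7 CPM in 8P and 25.5 to 40.5 CPM in 0P, against 14.5 to 23.02 CPM in 8ND and 15.8 to 25.4 CPM in 0ND, with S100a8, S100a9, Mmp8 and Retnlg at 0 in some libraries. Of the 5 tested, 4 were called higher and 1 lower in each comparison, where 28.2% (8P vs. 8ND) and 31.6% (0P vs. 0ND) of all genes were called. The lower marker was Ly6g (8P vs. 8ND −1.10 ± 0.40, adjusted p = 0.045, and 0P vs. 0ND −1.38 ± 0.43, adjusted p = 0.018, in edgeR). The 9 macrophage and dendritic markers summed to 130.1 to 281 CPM in 8P and 170.1 to 204 CPM in 0P, against 147 to 199.6 CPM in 8ND and 117 to 162 CPM in 0ND. Their part in the level of Itgam was not tested.

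Itgae, the alpha subunit by which intraepithelial T cells hold E-cadherin, measured 20.8, 16.3, 13.1, 12.2 and 11.6 CPM in 8P, against 9.24, 8.06, 11.7, 7.99 and 12.5 CPM in 8ND. It measured 18.9, 11.9, 13.3 and 23.6 CPM in 0P, against 11.7, 8.44, 9.56 and 9.61 CPM in 0ND. The groups without FA were separated by 11.7 and 11.9 CPM only, and those with FA overlapped. In edgeR the log2 fold change was 0.57 ± 0.21 in 8P vs. 8ND (adjusted p = 0.047) and 0.78 ± 0.23 in 0P vs. 0ND (adjusted p = 0.014). The first call was lost in 5 of 10 fits that left out 1 library (8ND 1, 8ND 2, 8ND 4, 8P 1 or 8P 2), at 0.42 to 0.55 with an adjusted p of up to 0.16, and also in limma-voom (0.56, adjusted p = 0.072), with the replicate number as a block (0.57, adjusted p = 0.061) and without 8ND 1 and 8ND 2 together (0.45, adjusted p = 0.21; 0.026 to 0.21 over all alternatives), and the second without 0P 4 (0.57, adjusted p = 0.082; 0.0065 to 0.082 over the alternatives). The 9 T and NK cell markers summed to 41.5 to 59.4 CPM in 8P and 39.6 to 61.0 CPM in 0P, against 45.8 to 72.9 CPM in 8ND and 39.5 to 93.9 CPM in 0ND, with only Nkg7 at 0 in some libraries. Itgae overlaps the gene Haspin.

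Itga4 pairs with Itgb7 in the gut homing receptor of lymphocytes and plasma cells and with Itgb1 in many cells. It measured 63.9, 89.1, 109.8, 79.7 and 66.9 CPM in 8P, against 106, 145, 211, 155 and 114 CPM in 8ND. It measured 108, 66.8, 82.4 and 80.6 CPM in 0P, against 214, 86.5, 154 and 97.6 CPM in 0ND. Libraries overlapped on both diets. Itga4 was called lower in 8P vs. 8ND (−0.84 ± 0.24, adjusted p = 0.014) and not in 0P vs. 0ND (−0.71 ± 0.27, adjusted p = 0.052). Itgb7 averaged 5.31 ± 2.05 CPM in 8P and 9.89 ± 4.37 CPM in 8ND (−0.90 ± 0.35, adjusted p = 0.058), and 6.12 ± 2.75 CPM in 0P and 9.202 ± 3.85 CPM in 0ND (−0.61 ± 0.38, adjusted p = 0.25). The 7 B and plasma cell markers summed to 310.0 to 1819 CPM in 8P and 569 to 851 CPM in 0P, against 2526 to 5550 CPM in 8ND and 1530 to 2976 CPM in 0ND, and their part in the level of Itga4 was not tested. Itga4 overlaps the gene Cerkl.

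The remaining subunits were called in no comparison. The collagen-binding alpha subunits gave 0 calls of 4 in edgeR, DESeq2 and limma-voom in both comparisons, and 0 of 4 had an unadjusted p under 0.05, except for 1 of 4 in 0P vs. 0ND by DESeq2 and by limma-voom. Of all genes, edgeR called 28.2% in 8P vs. 8ND and 31.6% in 0P vs. 0ND. With 4 genes, 0 calls do not set the collagen-binding subunits apart from all genes. Among the collagen-binding subunits, Itga1 averaged 111 ± 14.8 CPM in 8P, 124 ± 19.3 CPM in 0P, 107 ± 13.8 CPM in 8ND and 107 ± 19.2 CPM in 0ND, whereas Itga10 and Itga11 averaged at most 6.65 CPM. Lama4, the alpha chain of vascular laminin, gave −0.08 ± 0.15 in 8P vs. 8ND (adjusted p = 0.75) and −0.36 ± 0.17 in 0P vs. 0ND (adjusted p = 0.12). Itga9, a tenascin receptor subunit, gave 0.05 ± 0.16 and −0.03 ± 0.18. Itgb2, the beta subunit shared by leukocyte integrins, averaged 19.95 ± 7.66 CPM in 8P, 20.2 ± 5.77 CPM in 0P, 19.8 ± 7.00 CPM in 8ND and 16.5 ± 7.08 CPM in 0ND. Its partners Itgal (−0.50 ± 0.33 and −0.51 ± 0.37) and Itgax (0.01 ± 0.27 and 0.41 ± 0.30) and the platelet subunit Itga2b (0.63 ± 0.37 and 0.66 ± 0.40) gave these values in 8P vs. 8ND and 0P vs. 0ND. For Itgax and Itga2b the groups without FA did not overlap, although neither was called. Itgad had 0 to 15 reads per library.

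Intracellular adaptors were taken from another list. Of 27 adaptors and kinases of focal adhesions, 11 were called in 8P vs. 8ND (3 higher and 8 lower, or 40.7% against 28.2% of all genes) and 9 in 0P vs. 0ND (4 higher and 5 lower, or 33.3% against 31.6%, which is close to the background). Tns3, a tensin of epithelial cells, was higher by 1.07 ± 0.16 in 8P vs. 8ND (adjusted p = 6.0e-05) and 1.04 ± 0.17 in 0P vs. 0ND (adjusted p = 0.00014). Tns1, a tensin of muscle and fibroblasts, was lower by −1.38 ± 0.21 (adjusted p = 0.00013) and −1.25 ± 0.24 (adjusted p = 0.00054). Tns2 (−1.14 ± 0.18 and −1.04 ± 0.20), the kinase Ptk2b (−0.76 ± 0.14 and −0.95 ± 0.16) and the adaptor Lims2 (−1.28 ± 0.26 and −1.69 ± 0.28) were lower, and the actin cross-linker Actn1 (0.47 ± 0.12 and 0.74 ± 0.13) was higher, in 8P vs. 8ND and 0P vs. 0ND.

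Of 15 other integrin ligands tested, 6 were called in 8P vs. 8ND (4 higher and 2 lower, or 40.0% against 28.2% of all genes) and 6 in 0P vs. 0ND (5 higher and 1 lower, or 40.0% against 31.6%). Spp1 (osteopontin), a ligand of Itgav pairs, had the greatest change of the ligands named here, at 3.72 ± 0.57 in 8P vs. 8ND (adjusted p = 0.00014) and 5.66 ± 0.80 in 0P vs. 0ND (adjusted p = 4.6e-05). It averaged 17.2 ± 8.89 CPM in 8P and 12.2 ± 10.3 CPM in 0P, against 1.16 ± 0.852 CPM in 8ND and 0.251 ± 0.122 CPM in 0ND. The size of these changes thus rests on few reads in ND. The thrombospondins Thbs1 (1.33 ± 0.22 and 2.30 ± 0.25) and Thbs2 (1.91 ± 0.44 and 2.497 ± 0.51) and fibronectin, Fn1 (0.86 ± 0.23 and 1.204 ± 0.26), were higher in 8P vs. 8ND and 0P vs. 0ND, and Edil3, another RGD ligand, was lower (−0.998 ± 0.32 and −1.82 ± 0.36). The fibroblast markers, whose cells make much of the fibronectin in the gut, summed to 919 to 2188 CPM in 8P and 1370.0 to 1793 CPM in 0P, against 1177 to 1335 CPM in 8ND and 940.4 to 1025 CPM in 0ND. Of the 7, 2 were called in 8P vs. 8ND (1 higher and 1 lower, or 28.6% against 28.2% of all genes). In 0P vs. 0ND 6 were called (4 higher and 2 lower, or 85.7% against 31.6%). Dpt was lower on both diets (−1.72 ± 0.29 and −1.24 ± 0.32). Their part in the level of Fn1 was not tested.

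The comparison of FA doses addresses whether these genes differed between chow with 8 and 0 mg/kg FA, in ND or in P. No library came from mice kept on 2 mg/kg FA, so supplementation and deficiency cannot be told apart. In 8ND vs. 0ND, edgeR called 0 of 36 subunits, against 0.0481% of all genes, and 6 had an unadjusted p under 0.05 (16.7%, against 9.91% of all genes). DESeq2 called 1 of 35 (Lama1; 1.76% of all genes) and limma-voom 0 (0.0144% of all genes). Lama1 measured 30.3, 32.6, 16.1, 14.9 and 26.5 CPM in 8ND, against 8.26, 5.80, 15.2 and 3.13 CPM in 0ND. The groups overlapped only at 8ND 4 and 0ND 3. The fitted log2 difference was 1.58 ± 0.40 (adjusted p = 0.13 in edgeR; 0.0038 to 0.63 over the alternatives, the lowest in DESeq2), and it was 1.25 without 8ND 1 and 8ND 2, the libraries nearest to P. Lama5, whose values are given above, was 0.68 ± 0.21 higher (adjusted p = 0.23) and was the 1 subunit of 36 whose groups did not overlap (2.78%, against 3.94% of all genes). Without 8ND 1 and 8ND 2 its value was 0.43 (adjusted p = 0.78; 0.098 to 0.78 over the alternatives). Itga2, a collagen receptor subunit of epithelium and platelets, measured 62.3, 84.8, 64.7, 61.5 and 51.2 CPM in 8ND, against 56.7, 26.7, 45.1 and 26.2 CPM in 0ND. Only 0ND 1 reached into the range of 8ND (0.74 ± 0.25, adjusted p = 0.27).

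**Figure D5:**
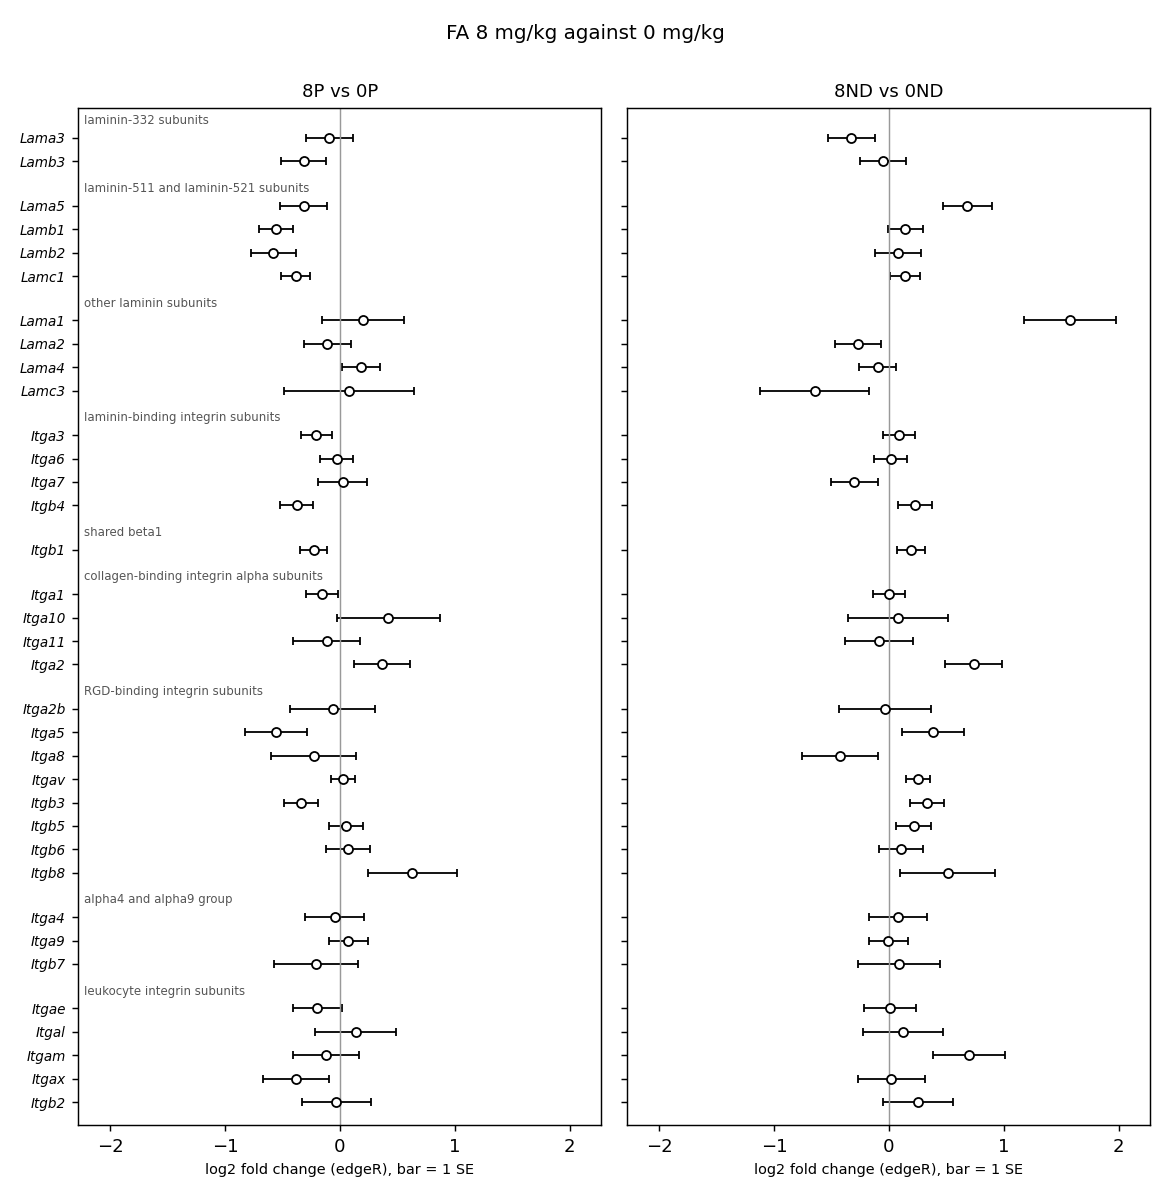
Log2 fold changes of tested subunits (x axis; bars, 1 SE) in 8P vs. 0P (left) and 8ND vs. 0ND (right), grouped by role along the y axis; open points were not called by edgeR. No point is filled, and Lama1 in 8ND vs. 0ND lies farthest from 0 at 1.58.

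In 8P vs. 0P, edgeR called 0 of 36 subunits (0.0% of all genes), and 5 had an unadjusted p under 0.05 (13.9%, against 10.1% of all genes). DESeq2 called 0 of 33 (0.148% of all genes) and limma-voom 0 of 36 (0.0%), and groups overlapped for every subunit (2.25% of all genes did not overlap). The 3 smallest p-values belonged to partner chains of Lama5. Lamb1 measured 88.4, 121, 76.9, 105 and 109 CPM in 8P, against 117, 120.0, 164 and 187 CPM in 0P. Lamb2 measured 27.5, 37.7, 14.4, 26.2 and 30.9 CPM in 8P, against 35.6, 34.2, 51.0 and 42.6 CPM in 0P. Lamc1 measured 99.4, 121, 91.7, 124 and 131 CPM in 8P, against 126, 142, 149 and 176 CPM in 0P. In each case 8P libraries reached into the range of 0P. The log2 fold changes were −0.56 ± 0.15 (adjusted p = 0.43), −0.58 ± 0.20 (adjusted p = 0.46) and −0.39 ± 0.13 (adjusted p = 0.46). Itgb8 gave 0.63 ± 0.39 (adjusted p = 0.57) and Lama1 0.20 ± 0.36 (adjusted p = 0.87).

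Whether the difference between P and ND depended on the diet was tested as an interaction, (8P − 8ND) − (0P − 0ND). In edgeR 0 of 36 subunits passed (0.0% of all genes), and 10 had an unadjusted p under 0.05 (27.8%, against 10.4% of all genes). DESeq2 called 0 of 33 (0.528% of all genes) and limma-voom 0 of 36 (0.0%). All 4 subunits of laminin-511 and laminin-521 were among the 10, with negative values, which mean a smaller rise in P on the FA diet. Lama5 gave −0.995 ± 0.29 (adjusted p = 0.32), Lamb1 −0.70 ± 0.21 (adjusted p = 0.32), Lamc1 −0.53 ± 0.18 (adjusted p = 0.35) and Lamb2 −0.66 ± 0.28 (adjusted p = 0.44). The others included Itgb3 (−0.67 ± 0.21, adjusted p = 0.32), Itgb4 (−0.60 ± 0.20), Lama1 (−1.38 ± 0.53), Itgb1 (−0.42 ± 0.17) and Itga5 (−0.94 ± 0.38). Itgb3 measured 35.9, 36.6, 25.6, 29.7 and 37.3 CPM in 8P and 30.6, 37.1, 29.7, 26.6 and 39.6 CPM in 8ND. It measured 34.3, 44.0, 47.3 and 41.4 CPM in 0P and 30.4, 23.4, 23.3 and 27.0 CPM in 0ND. The first pair overlapped and the second did not. In size, the log2 change was smaller in 8P vs. 8ND than in 0P vs. 0ND for 28 of 36 subunits (77.8%), against 58.3% of all genes. No subunit was thus shown to respond to dysplasia differently on the 2 diets, and the 8 subunits called only without FA (Lamb1, Lamb2, Lamc1, Itgb1, Itgb3, Itgb4, Itgb5 and Itgam) were not shown to differ.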

How the data were processed

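RNA-Seq libraries were made by the authors from 18 LMD colon samples with the SMARTer Stranded Total RNA-Seq Kit Pico version, aligned with Bowtie to mm10 and counted per gene name with HTSeq. The deposited values are raw read counts per gene, not normalized. For the aligner and counter, the version and strand setting were not given in the sources used here. The 5 summary lines of each file that name no gene were left out; reads on no feature made up 22.0 to 40.7% and reads not aligned uniquely 40.1 to 62.2% of a file's total. Groups were taken from the labels.

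Counts were filtered (filterByExpr, minimum count 10), scaled by TMM and tested with the quasi-likelihood test of edgeR 4.0.16 (R 4.3.3) in a single fit of all 18 libraries, with Benjamini-Hochberg adjustment over 20787 genes and a threshold of 0.05. The study itself compared groups with DESeq2 and with Cuffdiff. CPM were computed on TMM-scaled library sizes, RPKM additionally per exon length (GENCODE M21), and marker sums on total gene counts. Library totals set the precision, and the square root of the common dispersion was 26.1%. The closest replicates differed by 9.29 chi-square units per gene, so no library was counted as a duplicate. The fit was tested on simulated data. Alternatives were DESeq2 1.42.0, limma-voom (limma 3.58.1), other scalings, no filter, only the groups compared, a replicate block, leaving out libraries and a 2-fold rule.

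The subunits and gene lists were chosen with earlier results of these data known. Subunits past the threshold are named, except 1 that is counted but not reported here. Values per library are given for up to 6 subunits with the highest and up to 6 with the lowest log2 fold changes per comparison, among those averaging at least 5 CPM, or for the 3 with the smallest p where none passed, and for further subunits chosen after their values were seen. From each other list, up to 4 genes with the smallest p per comparison are named.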

Additional observations from a re-analysis of the deposited data

Results flagged for a closer look

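In 11 of 148 groups of 4 or 5 libraries, 1 library stood apart from the others of its group by Dixon's test, where chance gives about 1 in 20. In the 8P libraries, Lama2 was high in 8P 5 (42.8 CPM, against 18.1 to 24.5 CPM in the others), Lamb3 in 8P 2 (113 CPM, against 60.1 to 74.7 CPM), Itgb2 in 8P 2 (33.3 CPM, against 15.5 to 19.4 CPM) and Itga2 in 8P 3 (109.0 CPM, against 57.5 to 66.9 CPM). In 0P, Itgb1 was high in 0P 4 (497 CPM, against 349 to 366 CPM) and Lama1 was low in 0P 2 (48.5 CPM, against 63.1 to 65.7 CPM). In 8ND, Itga11 was low in 8ND 1 (3.17 CPM, against 6.56 to 7.28 CPM). In 0ND, the lymphocyte subunits Itgal (35.8 CPM, against 13.5 to 17.2 CPM) and Itgb7 (14.9 CPM, against 6.73 to 7.91 CPM) were high in 0ND 1, which also had the highest T and NK cell marker sum (93.9 CPM). Lamb1 was low in the same library (70.3 CPM, against 86.5 to 87.7 CPM), and Itgb6 was high in 0ND 3 (62.3 CPM, against 41.8 to 44.1 CPM). What set these libraries apart was not tested.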

How the results depend on the processing

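No log2 fold change of a called subunit changed sign under any alternative run. For single subunits, 662 refits kept their side of the threshold, 29 lost a call and 1 gained it (Lama1 in 8ND vs. 0ND with DESeq2). Among the losses not given above, Itga4 in 8P vs. 8ND was not called without the filter (−0.80, adjusted p = 0.074; 0.00041 to 0.074 over the edgeR, DESeq2 and limma-voom alternatives). Itga5 in 8P vs. 8ND was not called with RLE scaling (−0.68, adjusted p = 0.052), without scaling (−0.61, adjusted p = 0.10), without the filter (−0.65, adjusted p = 0.095), with only the groups compared (−0.67, adjusted p = 0.064) or without 8ND 1 and 8ND 2 together (−0.77, adjusted p = 0.075; 0.013 to 0.12 over its edgeR, DESeq2 and limma-voom alternatives). With a fold change of at least 2 also required, the number of called subunits was 9 in 0P vs. 0ND and 8 in 8P vs. 8ND. DESeq2 called 1 in 8ND vs. 0ND. Leaving out single libraries gave 17 to 21 calls in 0P vs. 0ND, 11 to 13 in 8P vs. 8ND, and 0 in both dose comparisons and the interaction. Over all genes in 8ND vs. 0ND, edgeR called 10, DESeq2 316, limma-voom 3, edgeR without the filter 41 and edgeR without 8ND 3 157.

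With the replicate number as a block, 21 subunits were called in 0P vs. 0ND, 13 in 8P vs. 8ND and 0 in the other comparisons. Of the calls, the block ended that of Itgae in 8P vs. 8ND (0.57, adjusted p = 0.061 in edgeR) and no other. The labels give no pairing, so the numbers were not taken as pairs. The deviations of same-numbered libraries correlated at 0.03 to 0.20 in 0P and 0ND and −0.08 to 0.27 in 8P and 8ND. For libraries with different numbers the range was −0.12 to 0.07 in 0P and 0ND and −0.25 to 0.21 in 8P and 8ND. On each diet the highest correlation was that of a same-numbered pair, and these values do not settle whether the numbers mark pairs. Depth limits Lamc3, Itga10, Itga2b and Itgad, which had few reads.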
